A study of Mus musculus with 6 samples.

Results

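The glucocorticoid receptor gene Nr3c1 and 7 genes known as its targets in many tissues (Tsc22d3, Fkbp5, Sgk1, Ddit4, Per1, Klf9 and Errfi1) were examined in microglia of mouse brain. Rows of the count table were chosen by gene symbol, which gave 8 genes of 38207 genes and loci, each on 1 row with its own Ensembl gene ID. The 6 libraries were nanopore cDNA libraries, 3 labelled sham and 3 labelled tMCAO (an abbreviation commonly used for transient occlusion of the middle cerebral artery, a stroke model that blocks and then reopens a brain artery). Every mouse was wild type, and each library was 1 pool of cells from 30 mice, so variation between single animals was not seen. The labels name brain as the tissue and microglia as the cell type, and the RNA was taken from tissue by their protocol. No age, sex, interval from surgery to collection, hour of collection or cell isolation step is stated in them. That limits these genes in particular, since glucocorticoid levels follow the time of day and handling.

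Glucocorticoids, corticosterone in the mouse, enter cells and bind the receptor, which waits in the cytoplasm in a complex with heat shock protein 90 and its co-chaperones. The receptor then moves to the nucleus, where it binds palindromic DNA elements and raises some genes, and by other contacts lowers many inflammatory genes. Microglia carry the receptor, and its targets are commonly read as a sign of steroid exposure, although most of them also answer to other signals. Counts of receptor mRNA do not measure receptor protein or activity.

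Total counts were 2371235 to 2614512 in the sham libraries and 1855495 to 2030550 in the tMCAO libraries. One count was thus 0.382 to 0.422 CPM (the count scaled to a common library total) in sham and 0.492 to 0.539 CPM in tMCAO. In a principal component analysis of log2(CPM + 1), tMCAO 3 stood apart on the second component (20.6% of the variance) at 53.5, against -31.3 to 13.5 for the other libraries. All 10 microglial markers, Tmem119, P2ry12 and Cx3cr1 among them, had counts, and their summed level was 33899 to 34404 CPM in sham and 32273 to 35570 CPM in tMCAO, with P2ry12 and Siglech called lower. Other cells were present too. The summed level of 10 choroid plexus markers was 8640 to 44699 CPM in sham and 2277 to 9983 CPM in tMCAO, that of 10 astrocyte markers was 145 to 432 and 70.9 to 93.8 CPM, and that of 7 erythroid markers was 955 to 6041 and 215 to 380 CPM, each highest in sham 2. The 8 monocyte markers summed to 92.6 to 110 CPM in sham and 163 to 346 CPM in tMCAO, and the 8 markers of border-associated macrophages to 186 to 236 and 404 to 547 CPM. No marker of these lists was at 0 in every library.

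Of the 7 members with enough counts to test, Errfi1 and Sgk1 rose after tMCAO, and Nr3c1, Tsc22d3, Fkbp5, Ddit4 and Per1 did not pass the test (edgeR's quasi-likelihood test, adjusted p under 0.05 over 13127 genes). Klf9 had too few counts. The call of Errfi1 held under all 14 alternative settings (other scalings, other tests or libraries left out), and that of Sgk1 was lost under 7 of them. The receptor and its 2 most used reporter genes, Tsc22d3 and Fkbp5, were within 0.35 of their sham level on the log2 scale, while Errfi1 was 2.37 times as high. Of all genes tested, 18.1% were called, 9.17% as higher and 8.96% as lower. No member was called lower by edgeR, by DESeq2 or by limma voom, and 1, Per1, was lower at an unadjusted p under 0.05. The median log2 fold change of the 7 tested members was 0.02, beside 0.0003 over all genes tested. The groups did not overlap for Sgk1 and Errfi1 among the 7, where 37.8% of all genes tested had groups that did not overlap. In such pools, fewer cells of a type and less RNA per cell cannot be told apart.

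**Figure D1:**
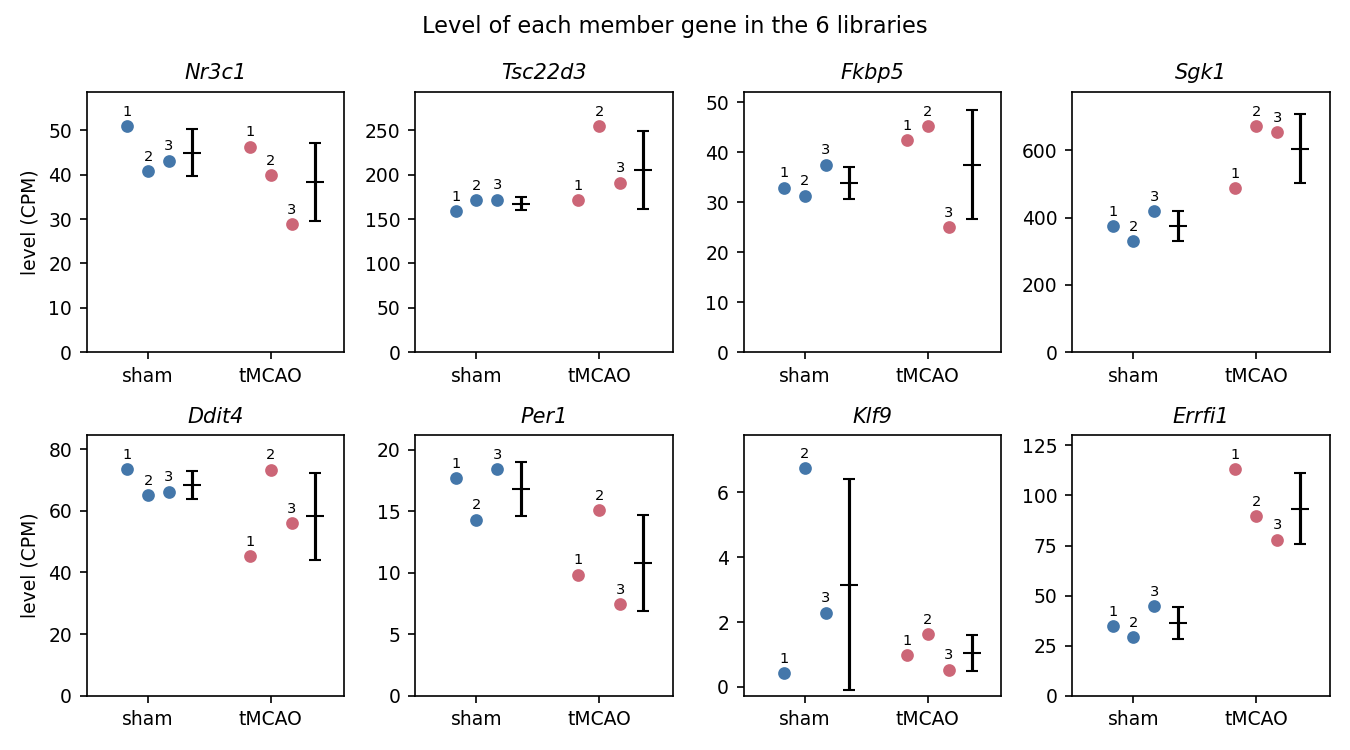
Level in CPM (vertical axis, linear; every axis starts at 0 except that of Klf9, where the lower SD bar reaches below it) of the 8 member genes in each library, numbered by replicate, with mean and SD of the 3 libraries per group as black bars. All tMCAO points lie above all sham points for Sgk1 and Errfi1, and the groups overlap for the other 6 genes.

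Nr3c1 (ENSMUSG00000024431) encodes the receptor itself. It had 51, 40.8 and 43.2 CPM in sham 1 to 3 and 46.3, 39.9 and 28.8 CPM in tMCAO 1 to 3. Both tMCAO 1 and tMCAO 2 lay within or next to the sham range, and tMCAO 3 was the lowest of the 6 libraries. The group means were 45 ± 5.33 and 38.3 ± 8.87 CPM (SD, n = 3), and the log2 fold change of tMCAO against sham was -0.35 ± 0.20 (SE; 95% interval -0.79 to 0.09; edgeR adjusted p = 0.251). The interval leaves room for a level between 0.576 and 1.06 times that of sham. Without tMCAO 3 the log2 fold change was -0.19, and over all alternatives it ran from -0.47 to -0.14. Among 4380 named genes with a mean of at least 20 CPM, the profiles over the 6 libraries closest to that of Nr3c1 were those of N4bp1, Sirpa and Fnbp1, with root mean square differences of 0.0582, 0.0603 and 0.0779 in centred log2(CPM + 1). Sirpa, the receptor for CD47 on phagocytes, was likewise lowest in tMCAO 3, at 334 CPM against 479 to 546 CPM elsewhere, and did not pass (adjusted p = 0.15). With so many candidate genes and 6 libraries, close profiles arise without any shared control, and none was tested.

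Tsc22d3 (ENSMUSG00000031431) encodes GILZ, a leucine zipper protein that the receptor induces and that binds inflammatory transcription factors. Its level was 159, 171 and 172 CPM in sham and 171, 255 and 191 CPM in tMCAO. Sham was even, with a coefficient of variation of 4.6%, and tMCAO 2 stood above the other 5 libraries. The log2 fold change was 0.18 ± 0.17 (95% interval -0.20 to 0.55; edgeR adjusted p = 0.522), and without tMCAO 2 it was 0.04.

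Fkbp5 (ENSMUSG00000024222) encodes FKBP51, a co-chaperone that lowers the receptor's affinity for hormone and is itself induced by the receptor. It had 32.9, 31.3 and 37.5 CPM in sham and 42.4, 45.3 and 25 CPM in tMCAO. Both tMCAO 1 and tMCAO 2 were above every sham pool, and tMCAO 3 was below every sham pool. The log2 fold change was 0.02 ± 0.22 (95% interval -0.46 to 0.50; edgeR adjusted p = 0.965), and its sign depended on the setting: it was 0.23 without tMCAO 3, -0.10 without tMCAO 2 and -0.05 with upper-quartile scaling. A change of the size seen for Errfi1 lay outside this interval. Fkbp5 overlaps 4 other annotated genes in GENCODE M21, none of them a row of the table, so reads of these could not be told apart from its own.

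Sgk1 (ENSMUSG00000019970) encodes a serine/threonine kinase that regulates ion transport and FOXO factors and that responds to glucocorticoids, serum and osmotic stress. In sham 1 to 3 it had 374, 330 and 420 CPM, from 886, 832 and 1099 counts. In tMCAO 1 to 3 it had 487, 673 and 655 CPM, from 988, 1248 and 1230 counts. All tMCAO pools were above all sham pools, with tMCAO 1 nearest to them. Means were 375 ± 45.3 and 605 ± 103 CPM, a rise of 0.58 ± 0.17 on the log2 scale (95% interval 0.22 to 0.94; edgeR adjusted p = 0.0293), or 1.5 times. The direction held under all 14 alternatives, with log2 fold changes of 0.45 to 0.75, but the call did not. It was lost in edgeR's test without sham 1 (adjusted p = 0.124), without sham 2 (0.0961), without sham 3 (0.0606), without tMCAO 2 (0.0786), without both sham 1 and tMCAO 3 (0.147) and with upper-quartile scaling (0.0563), in a range of 0.000535 to 0.147 over the alternatives.

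The closest profiles to Sgk1 were those of Irak2, a kinase of interleukin-1 and Toll-like receptor signalling, Baz2b, a chromatin protein, and Scamp4, a protein of secretory membranes, with root mean square differences of 0.0525, 0.0883 and 0.0894. Irak2 had 23.2, 20.2 and 28.7 CPM in sham and 33, 45.3 and 42.6 CPM in tMCAO, the same order of libraries within tMCAO as Sgk1. None of these genes passed the test (adjusted p = 0.066, 0.0971 and 0.0803).

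Errfi1 (ENSMUSG00000028967) encodes MIG6, a feedback inhibitor that binds the kinase domains of EGF receptors, and is induced by growth factors, stress and glucocorticoids. It had 34.6, 29.3 and 44.8 CPM in sham and 113, 89.5 and 77.8 CPM in tMCAO. The lowest tMCAO pool was well above the highest sham pool. Means were 36.2 ± 7.84 and 93.5 ± 18.1 CPM, a rise of 1.25 ± 0.20 on the log2 scale (95% interval 0.82 to 1.68; edgeR adjusted p = 0.00111). The fold was 2.37, with an interval of 1.76 to 3.2. Errfi1 overlaps an annotated antisense gene, 1700045H11Rik, in GENCODE M21, and since the use of strand is not given, reads of both could not be told apart. Egfr, the gene of the receptor that MIG6 inhibits, was named after its values were seen: it had 6, 8 and 2 counts in sham and 2, 1 and 1 in tMCAO, too few to test.

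The profiles closest to Errfi1 were those of Trex1, a DNA exonuclease that limits DNA sensing, Ms4a6c, a membrane protein of myeloid cells, and Tpd52, a protein of vesicle traffic. Their root mean square differences were 0.124, 0.13 and 0.157, and they rose by 1.35, 1.27 and 0.99 on the log2 scale (edgeR adjusted p = 0.000685, 0.000829 and 0.00163). They were picked for profiles like that of Errfi1, so a similar rise with a small p-value followed from the choice. The summed levels of the monocyte and border-associated macrophage markers given above were higher in every tMCAO pool than in any sham pool, as were Sgk1 and Errfi1. Of all genes tested, 37.8% had groups that did not overlap, in either direction. Of the single markers, 4 of 7 tested monocyte markers and 5 of 8 of the other list were called higher, and the lowest log2 fold changes were -0.27 and -0.68. F13a1 belongs to both lists, so its call and its level are counted in each. The part of such cells in the rises of Sgk1 and Errfi1 was not tested.

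**Figure D2:**
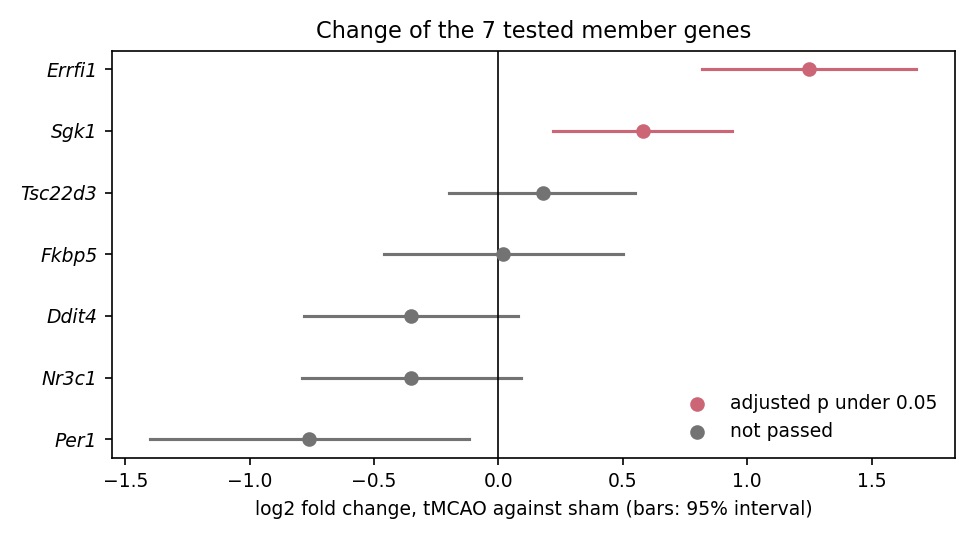
Log2 fold change of tMCAO against sham (horizontal axis) for the 7 tested members, with 95% intervals from edgeR's quasi-likelihood fit. Errfi1 (1.25) and Sgk1 (0.58) passed the adjusted threshold, the interval of Per1 lay below 0 without passing it, and those of the other 4 included 0.

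Promoter sequence is shown for the members that rose and for Per1. The windows shown held a receptor palindrome, an E-box or a cyclic AMP response element. Fkbp5 also had a window with an E-box, which is not shown. RefSeq promoters (build GRCm38.p6) were available for 7 members, all but Nr3c1, in 16 windows, 1 for each annotated start, and the 250 bases before each start were searched on both strands. Capitals mark the motifs. In the Sgk1 window (chr10:21993640-21993889, plus strand) they mark an E-box (CACGTG, the site of clock and MYC-type factors) and a full receptor palindrome (AGAACA, 3 bases, TGTTCT). In the Errfi1 window (chr4:150854820-150855069, plus strand) they mark a cyclic AMP response element (TGACGTCA), and in the Per1 window (chr11:69098699-69098948, plus strand) an E-box.
Sgk1: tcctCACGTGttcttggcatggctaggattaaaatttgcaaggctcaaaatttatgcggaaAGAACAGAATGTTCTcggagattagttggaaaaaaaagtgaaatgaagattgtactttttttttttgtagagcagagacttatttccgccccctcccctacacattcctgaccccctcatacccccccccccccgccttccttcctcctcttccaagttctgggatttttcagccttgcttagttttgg
Errfi1: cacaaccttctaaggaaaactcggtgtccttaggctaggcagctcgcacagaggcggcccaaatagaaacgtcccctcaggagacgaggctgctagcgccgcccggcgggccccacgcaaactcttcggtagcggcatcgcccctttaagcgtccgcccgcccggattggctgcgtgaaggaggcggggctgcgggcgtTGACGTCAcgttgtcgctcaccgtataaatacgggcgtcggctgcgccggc
Per1: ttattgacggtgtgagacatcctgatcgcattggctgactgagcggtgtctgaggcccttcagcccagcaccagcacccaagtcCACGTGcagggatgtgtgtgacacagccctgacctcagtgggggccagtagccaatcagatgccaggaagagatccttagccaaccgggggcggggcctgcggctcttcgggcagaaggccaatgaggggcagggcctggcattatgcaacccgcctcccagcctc

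The palindrome in the Sgk1 window ended 174 bases before that start. It occurred in 3 of 32851 windows of all genes (0.00913%). Sgk1 has 6 annotated starts in the table and the palindrome stood before 1 of them. Which start the microglial reads came from is not known, because the counts are per gene. One arm of it alone (AGAACA or TGTTCT), which the palindrome holds and which also overlaps the E-box of Sgk1, was found in 2 of 7 member genes, Sgk1 and Tsc22d3, and in 18.2% of 27025 genes. The E-box was found in 3 member genes, Fkbp5, Per1 and Sgk1, and in 6.86% of all genes. The cyclic AMP element was found in Errfi1 alone among the members, 43 bases before 1 of its starts, and in 1.77% of all genes. Errfi1 and Per1 have 2 annotated starts each, the motif stood before 1 of them, and the start in use is likewise not known. A gene with more windows has more chances of a match, and Sgk1 alone has 6 of the 16 member windows. By window, 1 arm of the palindrome was in 4 of 16 member windows and in 16.1% of all windows. The E-box was in 3 of 16 and 6.02%, and the cyclic AMP element in 1 of 16 and 1.55%. All of these are matches of letters and not measured binding sites. The receptor's known elements often lie farther away than this window reaches.

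Ddit4 (ENSMUSG00000020108) encodes REDD1, which restrains the growth kinase mTORC1 and is induced by glucocorticoids, low oxygen and energy stress. It had 73.4, 65 and 66.2 CPM in sham and 45.3, 73.3 and 55.9 CPM in tMCAO. Both tMCAO 1 and tMCAO 3 were below all sham pools, and tMCAO 2 was level with sham 1. The log2 fold change was -0.35 ± 0.20 (95% interval -0.78 to 0.08; edgeR adjusted p = 0.246). Without tMCAO 1 it was -0.16 and without tMCAO 2 it was -0.50, and it stayed below 0 under all 14 alternatives.

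Per1 (ENSMUSG00000020893), a repressor of the circadian clock that the receptor also induces directly, had 17.7, 14.3 and 18.4 CPM in sham and 9.85, 15.1 and 7.46 CPM in tMCAO, from 14 to 48 counts per library. Only tMCAO 2 reached the sham range. The log2 fold change was -0.76 ± 0.30 (95% interval -1.40 to -0.12), with an unadjusted p of 0.0238 in edgeR's test and an adjusted p of 0.0945, so it did not pass. It passed under none of the 14 alternatives, in which adjusted p ran from 0.062 to 0.323 and the log2 fold change from -1.03 to -0.56. Its paralogs Per2, with 1 to 4 counts per library, and Per3, with 3 to 7, were too low to test.

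Klf9 (ENSMUSG00000033863) encodes a zinc finger repressor that is a sensitive receptor target in neurons and other cells. It had 1, 17 and 6 counts in sham and 2, 3 and 1 counts in tMCAO, which is 0.422, 6.74 and 2.29 CPM against 0.985, 1.62 and 0.533 CPM. The sham mean rests on sham 2, the library in which the choroid plexus, astrocyte and erythroid sums were also highest, and the part of those cells was not tested. With no filter on low counts, where 12.7% of 31736 genes were called, Klf9 had a log2 fold change of -1.63 and an adjusted p of 0.128 in edgeR's test.

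The 7 tested members spread more in tMCAO than in sham. Their coefficients of variation were 4.6% to 21.6% in sham and 17% to 36.2% in tMCAO, and 6 of 7 were larger in tMCAO, as were those of 57.6% of all genes tested. Within tMCAO, 5 of the 7 were highest in tMCAO 2 (34.3% of all genes tested were), and 4 of the 7 were lowest in tMCAO 3 (46.5% of all). These orders compare single pools and were not tested.

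The other genes of the pathway were read from lists. Of all genes tested, 9.17% were called higher and 8.96% lower. The counts of calls in each list below are to be read beside these shares, and no list was tested as a set. Among 12 receptor chaperones and co-chaperones, 2 fell and 10 did not pass, with a median log2 fold change of -0.08. Hsp90aa1, the inducible form of heat shock protein 90 that holds the receptor ready for hormone, fell from 605 ± 87.4 to 250 ± 57 CPM (-1.38 ± 0.19; edgeR adjusted p = 0.000549), and Hspa4, a heat shock protein of the 110 family, fell from 65.2 ± 3.93 to 35 ± 6.18 CPM (-1.01 ± 0.20; adjusted p = 0.00365). The constitutive form Hsp90ab1 (-0.33, adjusted p = 0.0986) and the co-chaperone gene Ppid (-0.36, 0.241) did not pass. The heat shock genes Hspa1a (-1.93 ± 0.17) and Hspa1b (-2.18 ± 0.20), near-identical copies whose counts are uncertain, fell in the same libraries. Ptges3 (1.10 ± 0.87; edgeR adjusted p = 0.462) and Stub1 (1.13 ± 0.96; 0.487), of the chaperone list, were picked after their values were seen. Neither passed. For both, sham 1 and tMCAO 3 were lowest in their groups, and with that spread the test cannot show whether they changed.

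Of 14 coregulators, 12 were tested, and 3 rose while 9 did not pass, with a median of 0.63. The acetyltransferase gene Ep300 rose from 17.6 ± 2.03 to 34.2 ± 2.44 CPM (0.83 ± 0.22; edgeR adjusted p = 0.0188), Ncoa3, a steroid receptor coactivator, from 19.7 ± 5.12 to 38.7 ± 2.71 CPM (0.85 ± 0.22; 0.0197), and the coactivator gene Ncoa6 from 7.68 ± 1.43 to 16.4 ± 3.1 CPM (0.96 ± 0.30; 0.0397). Crebbp, the relative of Ep300, did not pass (0.54, adjusted p = 0.0612). In edgeR's test the call of Ep300 was lost without sham 1, sham 3 or tMCAO 2, that of Ncoa3 without sham 1, sham 2 or tMCAO 2, and that of Ncoa6 without sham 1, sham 2, sham 3 or tMCAO 2. All were lost without both sham 1 and tMCAO 3. That of Ncoa6 was also lost with upper-quartile scaling, with a block for the replicate number and with DESeq2. Adjusted p over all alternatives ran from 0.00671 to 0.085 for Ep300, 0.00342 to 0.101 for Ncoa3 and 0.025 to 0.158 for Ncoa6.

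Of 7 genes that handle the steroid, only Abcb1b and Abcb1a, which encode efflux pumps that export corticosteroids, had enough counts to test. Abcb1b rose from 94.1 ± 13.4 to 155 ± 10.6 CPM (0.61 ± 0.17; edgeR adjusted p = 0.0241). The call was lost without any 1 of the sham libraries (up to 0.103, against 0.00321 at the lowest of all alternatives). With a block for the replicate number it was lost too (0.0648). Abcb1a did not pass (0.16 ± 0.37, adjusted p = 0.798). The other 5 were too low. Of these, Hsd11b1, the enzyme that regenerates active corticosterone, was picked after its values were seen: it had 9, 19 and 9 counts in sham and 2, 1 and 3 in tMCAO. With no filter on low counts, its log2 fold change was -2.24 and its adjusted p 0.00868 in edgeR's test, and its highest count was again in sham 2. The unfiltered fit called 12.7% of 31736 genes. It gave far smaller adjusted p for some genes, as for Sgk1 (0.000535, against 0.0293 with the filter). The value for Hsd11b1, from 43 counts in all libraries, carries that limit. Nr3c2, the mineralocorticoid receptor gene, had 3 to 7 counts per library.

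Among 30 further genes that glucocorticoids are known to raise, 20 were tested, 7 rose, 5 fell and 8 did not pass, with a median of 0.42. Cdkn1a, an inhibitor of the cell cycle that p53 also induces, rose from 20.2 ± 1.73 to 116 ± 26.4 CPM (2.39 ± 0.20). Nfkbia, the inhibitor of NF-kB, which NF-kB itself induces, rose from 487 ± 137 to 1203 ± 220 CPM (1.20 ± 0.21), and the metallothionein gene Mt2 from 24.8 ± 8.13 to 75.4 ± 19.5 CPM (1.49 ± 0.29). Cdkn1c, another cell cycle inhibitor, fell from 16.9 ± 6.73 to 2.8 ± 0.909 CPM (-2.70 ± 0.43; edgeR adjusted p = 0.00106). The other 4 that rose were Bcl6, Dusp1, Mt1 and Cd163, the last of which is also among the border-associated macrophage markers. The other 4 that fell were the acute-phase gene Lcn2 (-1.35), the thioredoxin inhibitor gene Txnip (-0.69), the GTPase gene Rhob (-0.59) and the sulfotransferase gene Sult1a1 (-0.57), and these, like the 4 above, were named after their values were seen. Lcn2, which neutrophils also express, had 78, 95.9 and 107 CPM in sham and 65.5, 23.2 and 31.4 CPM in tMCAO. The 9 neutrophil markers summed to 1812, 1812 and 2296 CPM in sham and 1817, 419 and 970 CPM in tMCAO, with 1 of them, Retnlg, called lower. Both were lowest in tMCAO 2, and the part of neutrophils in the fall of Lcn2 was not tested. With DESeq2, 6 of the list were higher and 2 lower, and with limma voom 5 and 5.

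Of 15 inflammatory genes that the receptor is known to repress, 14 were tested and 12 rose, with a median of 1.44. Tnf (2.10 ± 0.19) and the chemokine gene Cxcl2 (2.13 ± 0.23) were among them. Ccl5, a chemokine of T cells and monocytes, rose from 18.9 ± 6.2 to 115 ± 27.1 CPM (2.48 ± 0.24), and Ptgs2, the inducible cyclooxygenase, from 12 ± 1.87 to 45.1 ± 6.77 CPM (1.79 ± 0.24). In the same libraries Nr3c1, Tsc22d3 and Fkbp5 did not pass the test, while the members Sgk1 and Errfi1 rose. Of the 20 tested genes of the further induced list, 7 rose and 5 fell. Of all genes tested, 9.17% were called higher and 8.96% lower. Whether receptor activity differed between the groups was not tested.

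**Figure D3:**
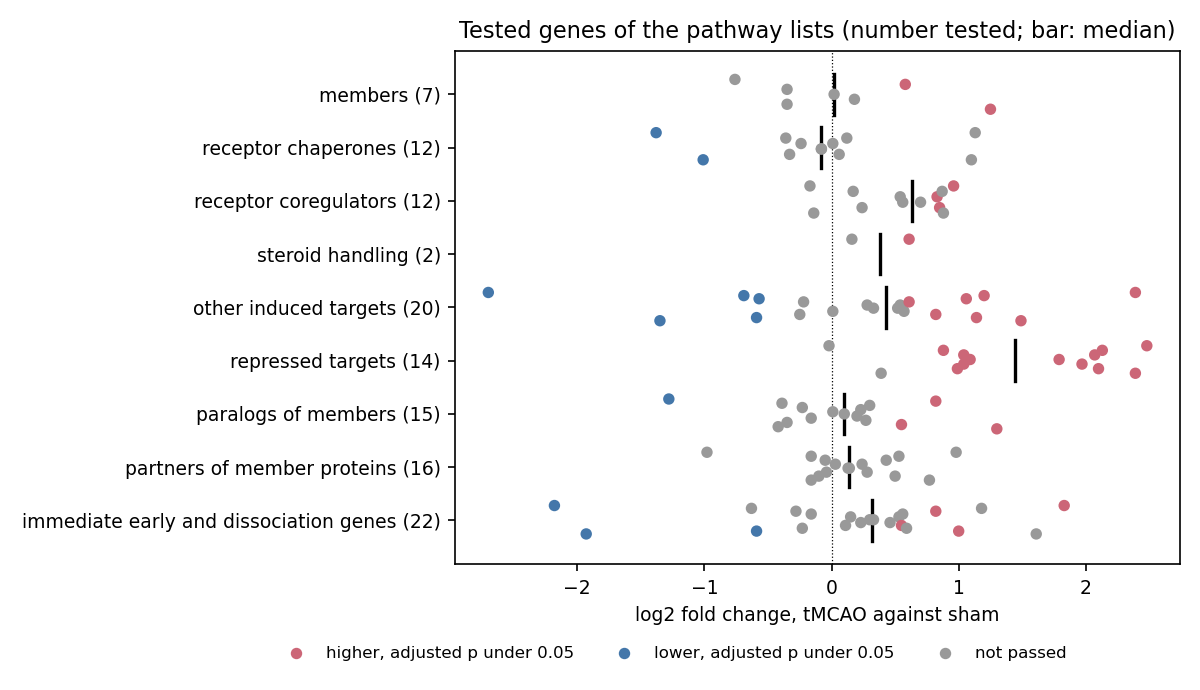
Log2 fold change of tMCAO against sham (horizontal axis) for each tested gene of the 9 lists, coloured by the call of edgeR's test, with the list's median as a black bar and the number tested in brackets. The members centre near 0 (median 0.02), the repressed targets lie to the right (1.44), and the other induced targets spread to both sides (0.42).

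Relatives of the member proteins moved in both directions. Of 20 paralogs 15 were tested, 3 rose, 1 fell and 11 did not pass, with a median of 0.10. The zinc finger genes Klf10 (0.82 ± 0.19; edgeR adjusted p = 0.0109) and Klf6 (0.55 ± 0.13; 0.0132) rose, as did Fkbp8, which encodes a mitochondrial relative of FKBP51 (1.30 ± 0.34; 0.0232), while Klf3, a repressor, fell (-1.28 ± 0.32; 0.0144). Fkbp8 had 54.2, 32.9 and 17.6 CPM in tMCAO 1 to 3 against 10.5 to 14.2 CPM in sham. Its call was lost in edgeR's test without any 1 of sham 1, sham 2, sham 3, tMCAO 1 or tMCAO 2. It was also lost with a block for the replicate number and with limma voom (adjusted p from 1.13e-05 to 0.0997 over all alternatives). Klf6 lost its call without sham 1 or sham 2 (up to 0.0613) and Klf3 without sham 1, sham 3, tMCAO 2 or both sham 1 and tMCAO 3 (up to 0.0929).

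Of 24 genes whose products act with REDD1, MIG6, SGK1 or the clock, 16 were tested and 0 were called by edgeR, DESeq2 or limma voom, with 2 higher and 1 lower at an unadjusted p under 0.05 in edgeR's test. These 3 were the kinase gene Mtor (0.98 ± 0.39, adjusted p = 0.102), Clock (0.50 ± 0.22, 0.132) and the transcription factor gene Foxo1 (-0.98 ± 0.42, 0.122).

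Tissue dissociation and stress raise a set of early genes, and 22 such genes, none of them a member, were read beside the members. Of these, 4 rose, 3 fell and 15 did not pass, with a median of 0.31. Dusp1, Rhob and Zfp36 are also among the further induced genes above, and Klf2, Klf4 and Klf6 among the paralogs. The calls of Dusp1, Rhob and Klf6 are thus counted in more than 1 list. Nr4a1, a nuclear receptor of the early response, rose from 53.3 ± 10.4 to 206 ± 22.9 CPM (1.83 ± 0.19; edgeR adjusted p = 5.67e-05), and Ier3, an early gene that NF-kB also induces, from 134 ± 32.7 to 289 ± 21.7 CPM (1.00 ± 0.18; 0.00206). Both were higher in every tMCAO pool than in any sham pool, as were Sgk1 and Errfi1. Groups did not overlap, in either direction, for 37.8% of all genes tested. The list's genes of smallest p, Hspa1a and Hspa1b, went the other way, as given above, and were lower in every tMCAO pool than in any sham pool (edgeR adjusted p = 1.66e-05 and 2.57e-05). The AP-1 genes were named after their values were seen. Of these, Fos (0.11 ± 0.17, adjusted p = 0.685), Jun (0.15 ± 0.47, 0.863) and Junb (0.53 ± 1.19, 0.808) did not pass. Junb had 66.6, 234 and 581 CPM in sham 1 to 3 and 622, 726 and 63.9 CPM in tMCAO 1 to 3. Ier2 had 19, 73.3 and 121 CPM in sham and 261, 250 and 25 CPM in tMCAO. Sham 1 and tMCAO 3 were thus lowest in their groups for Junb, Ier2 and Jun. For Fos, sham 2 was lowest in sham. With that spread inside both groups, the test cannot show whether Junb or Ier2 changed. The cause of the spread was not tested. The part of dissociation in the rise of Sgk1 and Errfi1 was not tested.

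**Figure D4:**
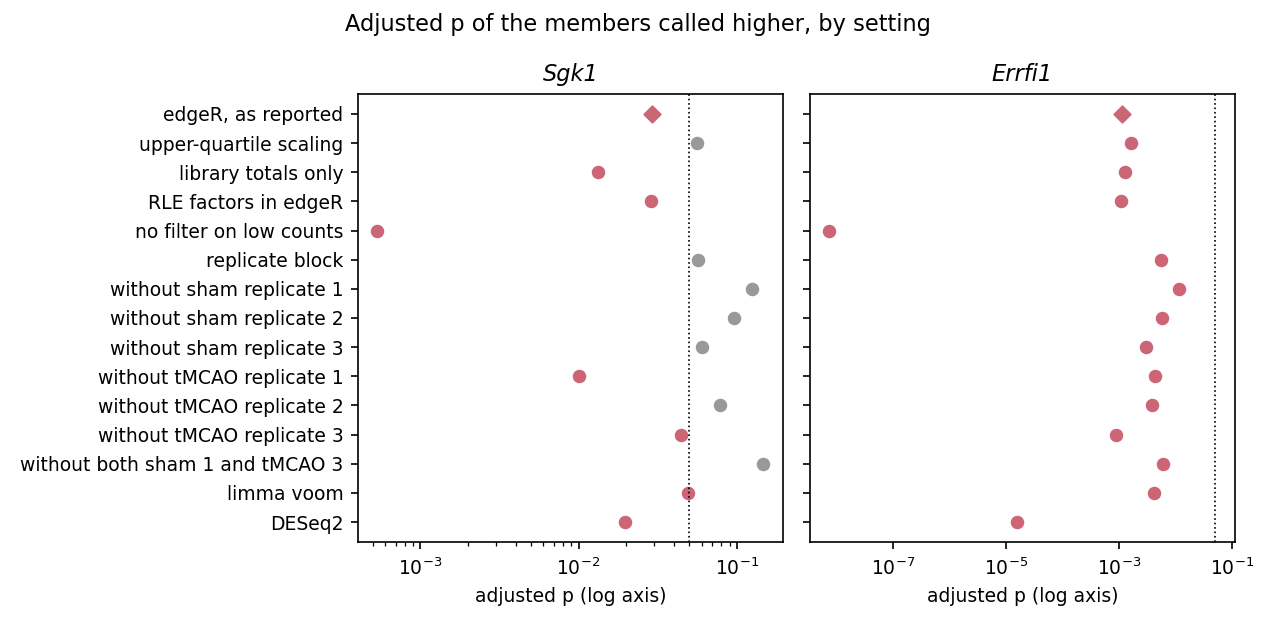
Adjusted p (horizontal log axis, dotted line at 0.05) of Sgk1 and Errfi1 as reported (diamond) and under each of the 14 alternative settings (circles), in red where it is under 0.05. Errfi1 stays to the left of the line throughout (0.0115 at most), and Sgk1 lies on both sides of it (0.000535 to 0.147).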

How the data were processed

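The authors sequenced PCR-amplified cDNA on nanopores, per the labels' protocols, and minimap2 (version not stated) is named in the submitters' processing notes. For build, annotation, counting rule and strand, nothing is given in the sources used here. Per the file headers, the authors deposited unnormalised counts of reads for each gene in each library. Its CPM columns, which the authors scaled by library total, differed from CPM computed from the counts by at most 4.87e-06. Of 38219 lines, 12 held spilled text and were left out.

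Counts were tested with edgeR 4.0.16 (R 4.3.3) with filterByExpr (minimum count 10, minimum total 15), TMM scaling, robust dispersions and quasi-likelihood F tests, with Benjamini-Hochberg adjustment over 13127 genes at 0.05. SE is the absolute log2 fold change over the square root of F. DESeq2 1.42.0, limma 3.58.1 (voom), other scalings, no filter, a replicate block and leaving out libraries were alternatives. Promoters of 7 members came from RefSeq (GRCm38.p6). The code was tested on simulated data. Levels are deposited CPM. Totals of 1855495 to 2614512 counts limit low genes. PCR reads carry no molecular identifiers.

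Groups came from sample titles. The labels do not say whether pools were prepared separately, so p-values cover only the variation among these 6 pools, which may be technical. Members and lists were chosen with earlier results of these data known. Besides the members, the rule for named genes took up to 4 tested genes per list (those of smallest p), and for Nr3c1 and each called member the 3 genes, of at least 20 CPM on average, closest in centred log2(CPM + 1). Any other gene named was chosen after its values were seen.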

Additional observations from a re-analysis of the deposited data

How the results depend on the processing

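The number of members called higher was 2, and it was 1 with upper-quartile scaling, with the replicate block and without both sham 1 and tMCAO 3, where Sgk1 lost its call each time. With 1 library left out it was 1 to 2. The number called lower was 0 in every fit. Of 98 alternative values of the 7 tested members, 84 kept direction and side of the threshold, 7 (all Sgk1) lost the call and 7 (all Fkbp5) changed sign. Fkbp5 was at -0.05 with upper-quartile scaling, -0.005 with the block, -0.01 with limma voom and -0.10 to 0.23 with 1 library left out, and was never called. For 30 other named genes, 382 of 420 values were unchanged in this sense, 33 lost a call, 4 gained one and 1 changed sign (Abcb1a, -0.18 without tMCAO 2 in a range of -0.18 to 0.43 with 1 library left out). The cause was not tested.

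Of all genes, 2380 changed. That count was 4039 with no filter on low counts, which tests 31736 genes, 1573 without both sham 1 and tMCAO 3, and 1254 to 2590 with 1 library left out (1254 without sham 1, 1558 without sham 3). Calls were higher in 50.6% of cases, in 63.2% with library totals as the only scaling, which shifted the median log2 fold change to 0.11, and in 42.2% with upper-quartile scaling (-0.07). The replicate block left 1662 changed genes, and under it Sgk1 (adjusted p = 0.0572), Ncoa6 (0.0751), Abcb1b (0.0648) and Fkbp8 (0.0576) lost their calls in edgeR's test. Deviations from group means of same-numbered libraries correlated at -0.202, 0.017 and -0.174 across genes. No library correlated best with its own number, and the highest value was 0.245, for sham 1 and tMCAO 3. With 3 libraries per group these values cannot show whether same-numbered pools were handled together, and the labels do not say. DESeq2 gave no adjusted p for Klf9. The numbers of member genes with each motif were the same in the full 300 bases of each promoter. The shares of all genes were larger there for 1 arm of the palindrome (21.3%), the E-box (8.09%) and the cyclic AMP element (2.03%).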
